A study of Homo sapiens with 2 samples.

Results

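Genes for respiratory complexes II to V and for cytochrome c were compared between ACHN cells that carried an shRNA against KIAA1429 (shKIAA1429) and ACHN cells that carried a control shRNA (shNC). The genes were chosen by symbol: SDHA to SDHD, those that begin with UQCR, CYC1, CYCS, those that begin with COX and a digit, those that begin with ATP5, and the MT-CO, MT-CYB and MT-ATP genes of the mitochondrial chromosome (chrM). The rule found 57 of the 12014 listed genes, 51 on nuclear chromosomes and 6 on chrM. The symbols in the files are partly older ones, so the ATP synthase genes appear as ATP5A1, ATP5B and so on. ACHN cells are a standard culture model of human kidney carcinoma, and KIAA1429, now named VIRMA, is a scaffold of the enzyme complex that writes N6-methyladenosine (m6A) into mRNA. Both lines were made by lentiviral infection and puromycin selection, so the control carries a vector and has been selected too. Poly(A) RNA of each line was sequenced once. No difference given here has a replicate check, no p-value was computed, and the values describe these 2 libraries. The labels use the word knockout, but the methods describe a knockdown by shRNA, and which of the shRNAs against KIAA1429 was sequenced is not given in the sources used here.

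Electrons from succinate enter the respiratory chain at complex II, and complex III passes electrons from ubiquinol to cytochrome c. Complex IV hands them from cytochrome c to oxygen. Complexes III and IV pump protons across the inner mitochondrial membrane, and complex V, the ATP synthase, lets protons back to make ATP. Complex II is built from nuclear genes alone. Complexes III, IV and V each combine proteins of nuclear genes, made in the cytosol and imported, with proteins of chrM genes, made inside the organelle. The chrM genes are transcribed as long RNAs that are cut into mRNAs, whereas each nuclear gene has its own promoter, and many of these promoters hold sites for NRF1, for the ETS factor GABPA or for YY1. Renal tubule cells are rich in mitochondria, and renal carcinomas are known for a shift from respiration to glycolysis.

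The chrM genes lie so close together that some share bases, which bears on how reads can be assigned to them. The last 46 bases of MT-ATP8 are the first 46 bases of MT-ATP6, both on the plus strand. MT-ATP6 and MT-CO3 share 1 base. The shared stretch (chrM:8527-8572) and the 30 bases around the MT-ATP6 to MT-CO3 junction (chrM:9193-9222) are shown from the transcripts of GENCODE 29, with the start codon of the downstream gene in capitals.
MT-ATP8 and MT-ATP6: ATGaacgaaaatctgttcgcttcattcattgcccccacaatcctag
MT-ATP6 and MT-CO3: cacgacaacacataATGacccaccaatcac

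Of the 49 nuclear members with a mean of at least 1 FPKM, 40 had a promoter entry in RefSeq (GRCh38.p14), with 50 windows from 250 bases before to 50 after a start site. The letters GCGCATGCG, part of an NRF1 site, stood on either strand in 9 of the 50 windows (18%), in 3.25% of the windows of all genes kept and in 1.92% of all 35116 windows. The letters CCGGAAG, the core of an ETS site, stood on either strand in 21 of the 50 (42%), in 17.9% of the windows of genes kept and in 10.3% of all windows. The letters AAGATGGCG, a YY1 site, stood on either strand in 5 of the 50 (10%), in 3.72% of the windows of genes kept and in 1.75% of all windows. Windows of 1 gene can overlap, so 1 site can count more than once. By gene, the NRF1, ETS and YY1 letters stood in 8, 19 and 4 of the 40 (20%, 47.5% and 10%). Over all genes kept outside chrM these shares were 4.44%, 23.8% and 5.12%. The windows of the 8 genes with the NRF1 letters are shown with these letters in capitals, 10 capitals where the letters stand on both strands, because they hold COX17, the gene with the highest change, beside genes on the other side of 0. The window of COX5B, the nuclear complex IV subunit with the lowest change, shows 2 copies of the ETS letters. In the order shown, the stretches lie at chr10:7788145-7788174 (plus strand), chr12:53676105-53676134 (minus), chr4:674335-674364 (minus), chr21:25735155-25735184 (minus), chr3:119677503-119677532 (minus), chr4:73069744-73069773 (minus), chr12:120437884-120437913 (plus), chr11:112086753-112086782 (plus) and chr2:97646017-97646066 (plus). The log2 changes of the 8 genes with the NRF1 letters, taken as the log2 ratio of shKIAA1429 to shNC with 1 FPKM added to each level, ran from -0.26 (COX18) to 0.67 (COX17). A match of letters is a description and not a measured binding site.
ATP5C1: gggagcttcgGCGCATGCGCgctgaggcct
ATP5G2: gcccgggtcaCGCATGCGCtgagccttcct
ATP5I: gccgctgacgGCGCATGCGtgcgcccagct
ATP5J: cactcaaagaGCGCATGCGtacagagcaag
COX17: gggcctccttGCGCATGCGCtgaagggggc
COX18: gcaggcaggcGCGCATGCGCtttatgcccg
COX6A1: ggagggcacaCGCATGCGCacgaaggaaac
SDHD: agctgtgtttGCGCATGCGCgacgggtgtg
COX5B: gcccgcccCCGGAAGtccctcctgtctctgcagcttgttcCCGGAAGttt

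Levels are FPKM as deposited, that is fragments scaled by gene length and library size. For differences, 1 was added to each level and the log2 ratio of shKIAA1429 to shNC was taken, so a positive log2 change is a higher level with shKIAA1429, and the change of low levels is understated. The 10708 genes with a mean of at least 1 FPKM were kept, 55 members among them. FPKM holds no read count, and sequencing depth could not be given. The target VIRMA stood at 3.92 FPKM with shNC and at 3.22 FPKM with shKIAA1429, a log2 change of -0.22. A fall of this size was common: SDHC, at -0.23, had 18.4% of the genes kept below it. Of 9 markers of renal epithelial cells, 8 were listed, PAX8 and PAX2 among them, and their FPKM summed to 351 with shNC and to 380 with shKIAA1429. Of 8 markers of other cells 3 were listed (ACTA2, RGS5 and LYZ), and they went in opposite directions: ACTA2 stood at 47.1 FPKM with shNC and 76.2 FPKM with shKIAA1429, RGS5 at 9.30 and 22.4 FPKM, and LYZ at 3.93 and 0.154 FPKM. Their sum was 60.3 and 98.7 FPKM. The other markers of other cells, those of T cells and endothelium included, were not among the listed genes. Whether these differences have a part in any result was not tested. In bulk RNA, fewer cells of a type and less RNA per cell cannot be told apart.

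The nuclear genes stood close to their control levels, and the chrM genes of the same complexes were all lower with shKIAA1429. Over the 49 nuclear members kept, the median log2 change was -0.04, with a range from -0.89 to 0.67. Over the 6 chrM members it was -0.49, with a range from -0.65 to -0.27. The median of all 10708 genes was 0.06, with an interquartile range from -0.15 to 0.27. Of the nuclear members 22 were above 0 and 27 below, and 0 of the 6 chrM members were above 0, where 57.3% of all genes were. The nuclear median lay 0.45 above the chrM median, and 2 of the 49 nuclear members lay below the chrM median. The nuclear range enclosed the chrM range.

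**Figure D1:**
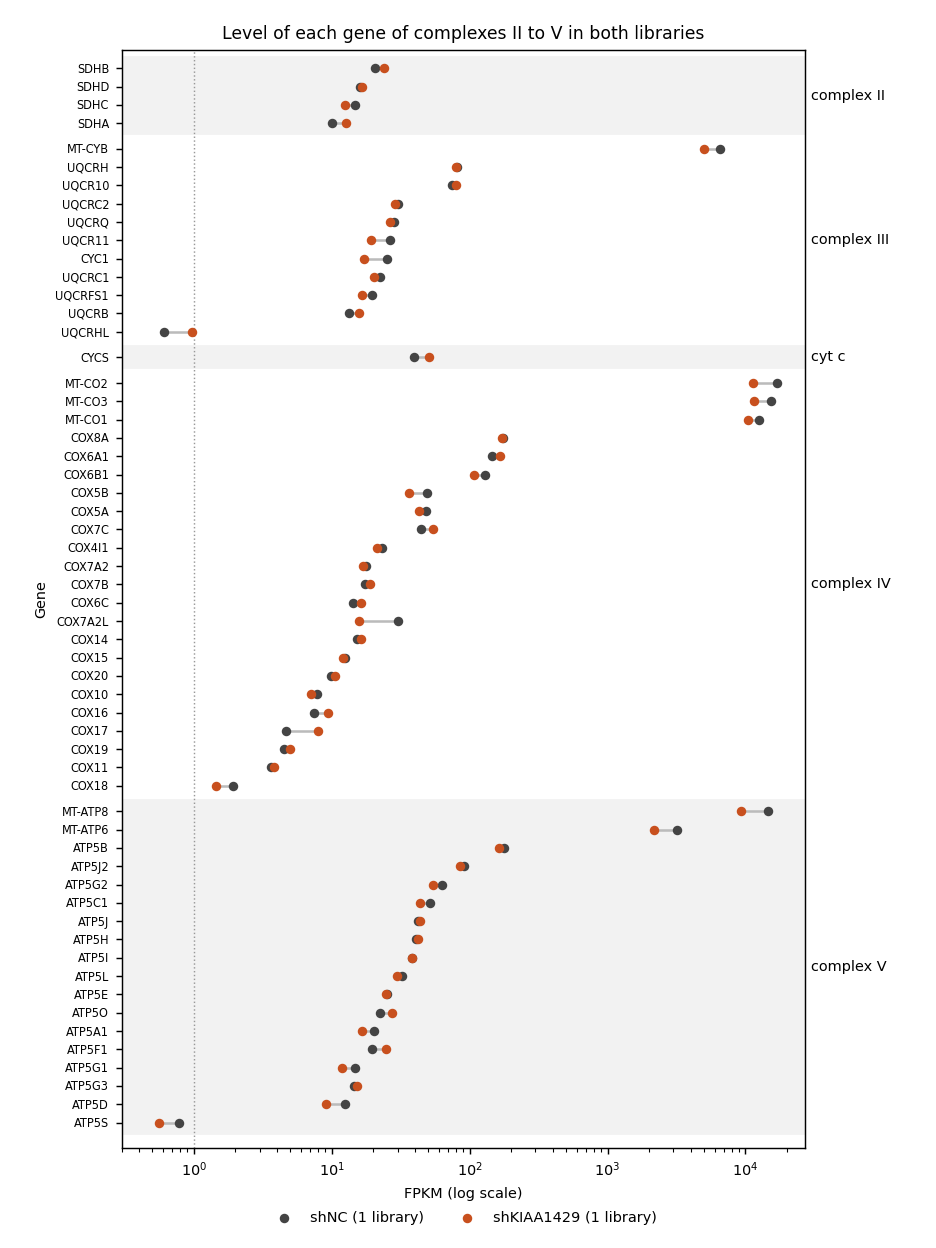
Level of each of the 57 genes, in FPKM on a log scale, grouped by complex and ordered by level, with a dark point for the shNC library and an orange point for the shKIAA1429 library (1 library each). The dotted line is at 1 FPKM. The chrM genes stand at 2174 FPKM and above with their orange points to the left, and the nuclear genes stand between 0.563 and 177 FPKM, most with overlapping or close points.

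The study's methods name a limit of 1.5 on the log2 scale for changes from DESeq2, together with a limit on the p-value. Here 1.5 was applied alone, to log2 ratios of FPKM + 1, and 0 members passed it in either direction. Of all genes kept, 0.392% were higher and 0.252% lower by more than this. Past 0.5, 1 member was higher (COX17) and 5 were lower (COX7A2L, CYC1, MT-ATP8, MT-CO2 and MT-ATP6), where 9.92% of all genes kept were higher by that much and 6.12% lower. Among the nuclear members, 46 of 49 lay within 0.5 of their control level. With 1 of 49 higher and 2 of 49 lower, the nuclear genes did not pass 0.5 more often than the rest of the genes.

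The 6 chrM members were among the most abundant of all listed mRNAs, with levels ranked 1, 2, 3, 4, 9 and 12 of the 12014. The catalytic core of complex IV is made by MT-CO1, MT-CO2 and MT-CO3, which carry or surround its heme and copper centres. MT-CO1 (chrM:5904-7445) stood at 12614 FPKM with shNC and at 10464 FPKM with shKIAA1429, 83.0% of the control, with a log2 change of -0.27. MT-CO2 (chrM:7586-8269) stood at 17005 and at 11333 FPKM, 66.6% of the control and a log2 change of -0.59. MT-CO3 (chrM:9207-9990) stood at 15312 and at 11534 FPKM, 75.3% and -0.41. All 3 were lower with shKIAA1429, MT-CO1 least and MT-CO2 most.

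MT-CYB (chrM:14747-15887), cytochrome b of complex III, stood at 6513 FPKM with shNC and at 4986 FPKM with shKIAA1429, 76.6% of the control and a log2 change of -0.39. The proton channel of complex V holds the product of MT-ATP6, and MT-ATP8 makes a small subunit of its membrane part. MT-ATP8 (chrM:8366-8572) stood at 14670 and at 9317 FPKM, 63.5% and -0.65, the lowest log2 change of the chrM genes. MT-ATP6 (chrM:8527-9207) stood at 3208 and at 2174 FPKM, 67.8% and -0.56. The overlapping pair MT-ATP8 and MT-ATP6 differed in level more than in change, and how fragments from their 46 shared bases were divided was not tested. MT-CO1, MT-CO2 and MT-CYB, which share no bases with a listed gene of their strand, had a median of -0.39.

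The other chrM genes encode subunits of complex I, which takes electrons from NADH. Their median log2 change was -0.45 over 7 genes. MT-ND1, MT-ND2, MT-ND3, MT-ND4, MT-ND4L and MT-ND5 lay between -0.51 (MT-ND4, 11633 FPKM with shNC and 8164 with shKIAA1429) and -0.41 (MT-ND1, 10774 and 8098). MT-ND6 is the only one of the 13 listed chrM genes on the minus strand, and it stood at 468 FPKM with shNC and at 470 FPKM with shKIAA1429, a log2 change of 0.01. All 12 plus-strand genes were lower with shKIAA1429 and the minus-strand gene stood at its control level. The minus strand is represented by MT-ND6 alone, which had the lowest level of the 13 in this poly(A) RNA. A difference between strands was not tested. The 12 plus-strand genes come from shared precursor RNAs and are not 12 independent observations.

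**Figure D2:**
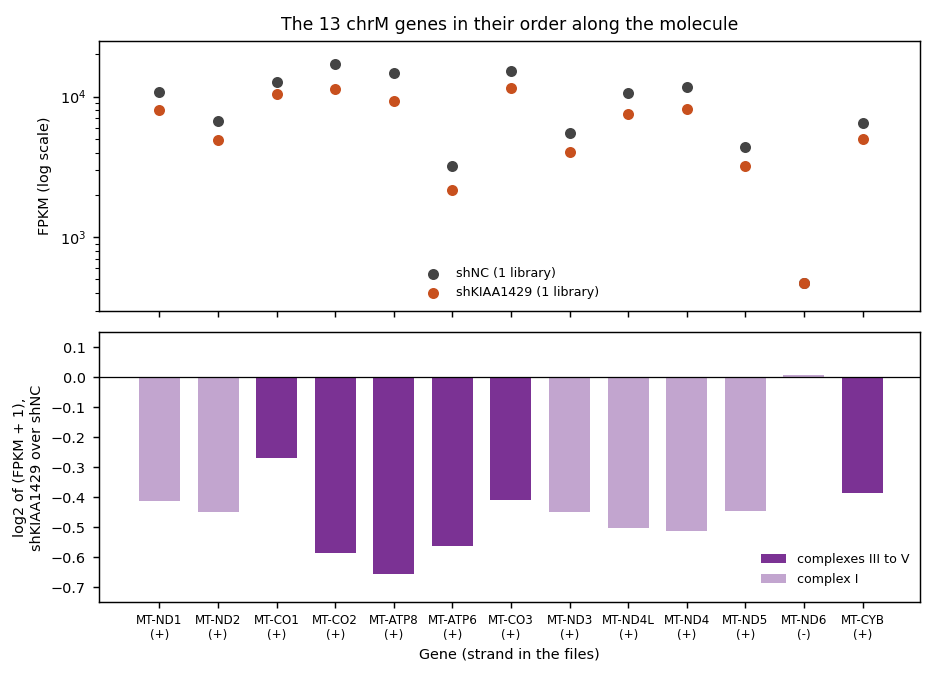
The 13 chrM genes in their order along the molecule, with the strand under each name: the upper panel gives FPKM on a log scale in the shNC library (dark) and the shKIAA1429 library (orange), the lower panel the log2 change, with the genes of complexes III to V in dark purple and those of complex I in light purple. The bars of the 12 plus-strand genes lie between -0.65 and -0.27, lowest at MT-CO2, MT-ATP8 and MT-ATP6, and the bar of MT-ND6 is at 0.01.

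Part of the sequence of some chrM genes is also present in nuclear copies or pseudogenes, to which reads may be assigned. Of the 100-base words of MT-CO1, 27.9% also stood in another GENCODE 29 transcript, that of MTCO1P12. The share was 11.9% for MT-ATP6, 4.38% for MT-CO3 and 2.39% for MT-CO2, and 0% for MT-CYB and MT-ATP8. A share is a property of the sequence and is the same for both libraries, so it cannot tell how such copies bear on the change. MT-CO1, with the largest share, had the smallest change of the 6, and MT-CYB and MT-ATP8, both with none, had the next smallest and the largest. Whether reads were lost to these copies was not tested.

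Complex II oxidises succinate with SDHA and SDHB, which are anchored in the membrane by SDHC and SDHD. SDHA, which binds the flavin, stood at 10.02 FPKM with shNC and at 12.7 FPKM with shKIAA1429 (log2 change 0.31). SDHB, the iron-sulfur subunit, stood at 20.5 and 24.04 FPKM (0.22). SDHC stood at 14.8 and 12.5 FPKM (-0.23) and SDHD at 16.03 and 16.6 FPKM (0.05). The soluble pair was higher with shKIAA1429 and the anchors were on either side of 0. With a median of 0.13 over 4 genes, complex II was the complex whose nuclear genes lay highest, and centring on the median of all genes moved SDHD below 0.

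Complex III holds 2 large core proteins, the cytochromes b and c1, the Rieske iron-sulfur protein and several small subunits. The median log2 change of its 9 nuclear subunits kept was -0.08, and 2 of them were above 0. CYC1, which encodes cytochrome c1 (chr8:145149930-145152428 on GRCh37, plus strand), stood at 25.3 FPKM with shNC and at 17.3 FPKM with shKIAA1429. Its log2 change of -0.53 was the lowest of the nuclear subunits of all 4 complexes, and -0.36 after both libraries were rescaled to the same sum. UQCRFS1, the Rieske protein, stood at 19.6 and 16.7 FPKM (-0.22).

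The core proteins UQCRC1 and UQCRC2 stood at 22.2 and 20.3 FPKM (-0.12) and at 30.2 and 28.99 FPKM (-0.06). The most abundant nuclear subunits were UQCRH, which binds cytochrome c1, at 80.7 and 79.8 FPKM (-0.02), and UQCR10 at 74.9 and 80.2 FPKM (0.10). UQCRQ stood at 28.1 and 26.6 FPKM (-0.08), UQCRB at 13.5 and 15.6 FPKM (0.20), and UQCR11 at 26.6 and 19.4 FPKM (-0.44). The 5 small subunits thus ranged from -0.44 to 0.20, with a median of -0.02. UQCRH shares 15.6% of its 100-base words with UQCRHL, an almost identical gene without introns that stood at 0.607 FPKM with shNC and 0.970 FPKM with shKIAA1429 and was below the filter.

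Cytochrome c carries electrons from complex III to complex IV, and its gene CYCS stood at 39.4 FPKM with shNC and at 51.0 FPKM with shKIAA1429 (0.36). HCCS, the enzyme that attaches heme to it, stood at 9.58 and 12.3 FPKM (0.33). Both lay on the opposite side of 0 from CYC1 and MT-CYB, the cytochromes of complex III.

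Complex IV surrounds its chrM core with small nuclear subunits, of which 10 were kept, with a median log2 change of -0.05 and 4 above 0. The most abundant nuclear members of this complex were COX8A at 176 FPKM with shNC and 173 FPKM with shKIAA1429 (-0.02), COX6A1 at 146 and 166 FPKM (0.18) and COX6B1 at 129 and 107 FPKM (-0.26). COX4I1, which binds ATP as a regulator, stood at 23.2 and 21.2 FPKM (-0.12), and COX5A at 48.3 and 43.2 FPKM (-0.16). COX5B, which binds zinc, stood at 48.7 and 36.6 FPKM (-0.40), the lowest change of these subunits. COX7C stood at 44.6 and 53.9 FPKM (0.27), the highest.

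The other nuclear subunits were COX7A2 at 17.8 FPKM with shNC and 16.8 FPKM with shKIAA1429 (-0.08), COX7B at 17.4 and 19.0 FPKM (0.12) and COX6C at 14.3 and 16.3 FPKM (0.17). One form of each of the COX4I, COX6A, COX6B, COX7A, COX7B and COX8 subunits was listed, and the forms known from muscle, lung or testis were not analysed here. All 10 subunits stayed within 0.5 of the control level, where 8991 of all 10708 genes kept did. COX6A1 shares 23.5% of its 100-base words with COX6A1P2, and its level is uncertain to that extent.

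COX7A2L resembles a complex IV subunit and joins complex IV to complex III in supercomplexes. It stood at 30.2 FPKM with shNC and at 15.9 FPKM with shKIAA1429, 52.5% of the control level. Its log2 change of -0.89 was the lowest of all members, rank 148 from the bottom of the 10708 genes, where 1.37% of genes were lower. It ranged from -0.97 to -0.74 over the alternative settings. The gene (chr2:42560686-42652228 on GRCh37, minus strand) shares no stretch with other listed genes of that strand, and 0% of its 100-base words stood in another gene.

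Complex IV needs copper, heme A and insertion factors to be built. Of the 10 members described with these factors, 8 lay within 0.5 of their control level, all but COX17 and COX7A2L. Of all 10708 genes kept, 8991 lay within 0.5, so these members did so about as often as other genes. COX17, which passes copper on to the chaperones of this complex (chr3:119373360-119396301 on GRCh37, minus strand), stood at 4.67 FPKM with shNC and at 8.02 FPKM with shKIAA1429. Its log2 change of 0.67 was the highest of all members, and 95.2% of the genes kept were lower. The copper factors COX19, at 4.49 and 5.00 FPKM (0.13), and COX11, at 3.63 and 3.84 FPKM (0.06), lay nearer to 0, and COX11 was at -0.13 with the trend in GC content and length removed.

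The heme A enzymes COX10, at 7.86 FPKM with shNC and 7.03 FPKM with shKIAA1429 (-0.14), and COX15, at 12.4 and 12.1 FPKM (-0.04), were close to their control levels. COX14 stood at 15.2 and 16.4 FPKM (0.10), COX16 at 7.39 and 9.39 FPKM (0.31) and COX20 at 9.91 and 10.5 FPKM (0.07). COX18, which inserts part of MT-CO2's product into the membrane, was the least abundant at 1.92 and 1.44 FPKM (-0.26). Over these 10 genes, COX7A2L included, the median log2 change was 0.07, with 6 above 0.

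Complex V consists of a catalytic F1 head, a peripheral stalk that holds it, and a membrane part with a rotating c-ring. Its 15 nuclear genes kept had a median log2 change of -0.08, with 6 above 0. The head and the stalk lay on opposite sides of 0. All 5 genes of the head were lower with shKIAA1429: ATP5B, the catalytic beta subunit, at 177 FPKM with shNC and 162 FPKM with shKIAA1429 (-0.13), ATP5A1, the alpha subunit, at 20.2 and 16.7 FPKM (-0.27), and ATP5C1, the gamma subunit, at 51.4 and 43.9 FPKM (-0.22). ATP5D, the delta subunit, stood at 12.6 and 9.08 FPKM (-0.43) and ATP5E, the epsilon subunit, at 25.3 and 24.6 FPKM (-0.04).

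All 4 genes of the peripheral stalk were slightly to moderately higher. ATP5F1 stood at 19.6 FPKM with shNC and at 24.6 FPKM with shKIAA1429 (0.31), and ATP5O, which ties the stalk to the head, at 22.6 and 27.2 FPKM (0.26). ATP5H stood at 40.9 and 42.3 FPKM (0.05) and ATP5J at 42.4 and 43.4 FPKM (0.03). The median was -0.22 for the head and 0.15 for the stalk, but 2 of the 4 stalk genes were above 0 after centring on the median of all genes, and 2 of the 5 head genes were above 0 after both libraries were rescaled to the same sum.

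The c-ring protein is made from 3 genes that encode the same mature protein. ATP5G1 stood at 14.8 FPKM with shNC and 11.9 FPKM with shKIAA1429 (-0.29), ATP5G2 at 63.1 and 54.0 FPKM (-0.22) and ATP5G3 at 14.4 and 15.1 FPKM (0.07, but -0.20 with the trend in GC content and length removed). Their sum was 92.2 and 81.0 FPKM, a log2 change of -0.19. ATP5G2 held 68.4% of the total in shNC cells and 66.7% in shKIAA1429 cells.

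The small membrane subunits ATP5I, at 38.0 FPKM with shNC and 38.1 FPKM with shKIAA1429 (0.002), ATP5J2, at 90.9 and 85.8 FPKM (-0.08), and ATP5L, at 32.3 and 29.7 FPKM (-0.12), were near their control levels. ATP5J2 overlaps PTCD1 and a read-through gene of both on the same strand. ATP5S, a factor named after the ATP synthase, was below the filter at 0.784 and 0.563 FPKM. A few further genes of complex V stand under symbols outside the rule and were named after their values were seen: USMG5 at 118 and 123 FPKM (0.06), C14orf2 at 15.7 and 14.5 FPKM (-0.11) and the inhibitor ATPIF1 at 22.6 and 18.8 FPKM (-0.25).

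**Figure D3:**
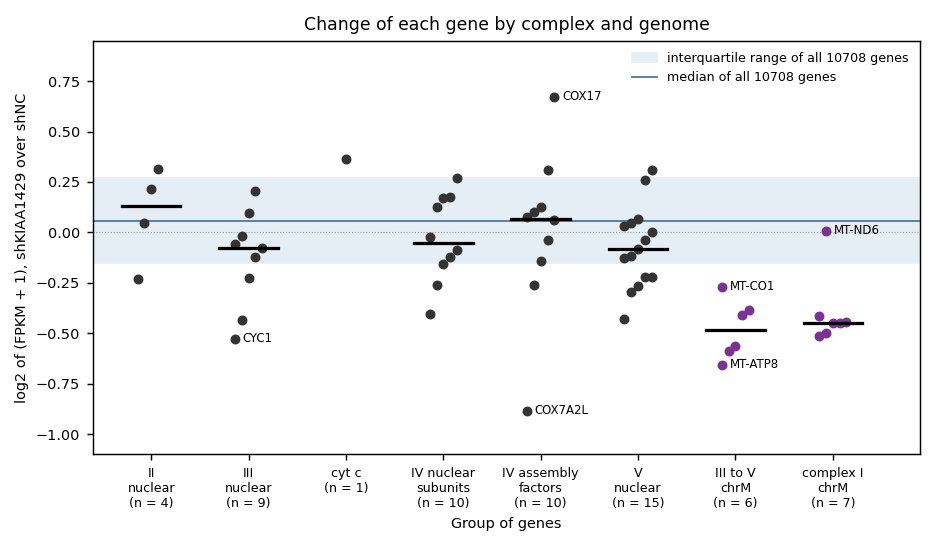
Log2 change of (FPKM + 1), shKIAA1429 over shNC, for each gene kept, by complex and genome, with nuclear genes in black and chrM genes in purple; thick lines are group medians, the blue line is the median of all 10708 genes and the band their interquartile range. Most nuclear genes lie in the band, COX17 at 0.67 and COX7A2L at -0.89 are the nuclear genes farthest from it, and the chrM genes other than MT-ND6 lie below it.

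The levels of both genomes within 1 complex differed by 193 to 330 times, and this factor was smaller with shKIAA1429 in complexes IV and V. The median chrM level was 330 times the median level of the nuclear subunits of complex IV with shNC and 284 times with shKIAA1429. In complex V it was 277 and 193 times, and in complex III, with MT-CYB alone, 244 and 245 times. In complex III the lower MT-CYB level was matched by a lower median of the nuclear subunits, whose middle gene by level was another one in each library. The 6 chrM members held 24.5% of all listed FPKM with shNC and 19.97% with shKIAA1429, and the 51 nuclear members 0.654% and 0.719%. Summed, the chrM members went from 69322 to 49808 FPKM and the nuclear members from 1852 to 1794 FPKM. The kept genes outside chrM summed to 162744 FPKM with shNC and 162268 FPKM with shKIAA1429.

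Changes were also described by level outside chrM. Genes outside chrM of 100 FPKM and over had a median log2 change of -0.10 (206 genes), those from 20 to 100 FPKM 0.01 (1394 genes), those from 5 to 20 FPKM 0.08 (4426 genes) and those from 1 to 5 FPKM 0.06 (4669 genes). The median of the highest class lay below those of the others, and its genes ranged from -1.24 to 1.09. The highest mean level outside chrM was 2580 FPKM and the lowest of the chrM members 2691 FPKM, so no genes outside chrM matched them in level, and the part of level in their change was not tested. Outside chrM the cytosolic ribosomal proteins, 85 genes with a median level of 142 FPKM, had a median log2 change of -0.16 with 10 above 0. The nuclear complex I genes had a median of -0.05 (38 genes, 18 above 0) and the mitochondrial ribosomal proteins, which translate the chrM mRNAs, a median of -0.02 (78 genes, 36 above 0). The nuclear members of complexes II to V thus had a median beside those of both other nuclear sets for mitochondria.

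The factors that build the complexes but do not match the rule were described from lists, past 0.5 in either direction, where 9.92% of all genes kept were higher and 6.12% lower. The counts of these short lists were not tested against that background. Of 4 complex II factors kept, 1 was lower: SDHAF4, which helps SDHA into the complex, at 4.31 FPKM with shNC and 2.18 FPKM with shKIAA1429 (-0.74). Of 6 complex III factors, 2 were higher: UQCC2, at 2.81 and 5.53 FPKM (0.78), and UQCC1, at 4.19 and 6.56 FPKM (0.54). These 2 act together in the making of cytochrome b. The 6 factors ranged from -0.33 to 0.78, with 3 above 0, 3 below and a median of 0.18. Of 4 complex V factors, 0 passed 0.5.

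Of 21 further complex IV factors, 3 were higher and 3 lower, with a median of -0.12. HIGD1A, a small protein of the complex induced in low oxygen, stood at 30.4 FPKM with shNC and at 48.0 FPKM with shKIAA1429 (0.64), TMEM177 at 2.70 and 4.55 FPKM (0.58) and CMC2 at 0.965 and 1.802 FPKM (0.51). SCO2, which delivers copper to the product of MT-CO2, stood at 7.07 and 4.09 FPKM (-0.66) and has a second row that overlaps it. OXA1L, which inserts chrM-encoded proteins into the membrane, stood at 29.8 and 19.5 FPKM (-0.59), and SMIM20 at 15.6 and 10.2 FPKM (-0.57). The copper factors COX17 and SCO2 lay on opposite sides of 0.

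The genes that copy and read chrM were near their control levels as a list: 17 were kept, with a median of 0.03, 1 above 0.5 and 1 below -0.5. MGME1, a nuclease of chrM replication, stood at 5.90 FPKM with shNC and at 9.03 FPKM with shKIAA1429 (0.54), and TFB1M, which methylates the small ribosomal RNA of mitochondria, at 3.35 and 1.92 FPKM (-0.58). The main transcription factor TFAM, named after its value was seen, stood at 11.5 and 15.4 FPKM (0.40), and the RNA polymerase POLRMT, likewise, at 5.35 and 4.61 FPKM (-0.18).

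Among 27 genes that process or degrade chrM RNA, with a median of 0.06, 1 was above 0.5 and 2 below -0.5. PNPT1, the polynucleotide phosphorylase that degrades RNA in mitochondria, stood at 8.01 FPKM with shNC and at 13.3 FPKM with shKIAA1429 (0.67). SLIRP, which stabilises chrM mRNAs, stood at 9.58 and 6.298 FPKM (-0.54). MRM1, which methylates the large ribosomal RNA, stood at 6.78 and 3.38 FPKM (-0.83). The other 24 genes of the list lay within 0.5, and these counts are to be read beside the 9.92% of all genes that were higher and the 6.12% that were lower by that much.

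Of 11 listed regulators of respiratory genes 9 were kept, with a median of 0.08. NFE2L2, the factor of the oxidative stress response, stood at 16.8 FPKM with shNC and at 26.8 FPKM with shKIAA1429 (0.64). YY1 stood at 12.2 and 7.97 FPKM (-0.55). The other 7 lay within 0.5, where 8991 of all 10708 genes kept did. Of 19 genes for electron entry and ubiquinone, with a median of -0.07, COQ10B was higher (8.31 and 14.004 FPKM, 0.69), and COQ9 (13.5 and 8.54 FPKM, -0.60) and COQ5 (12.3 and 8.23 FPKM, -0.53), which make ubiquinone, were lower. The list of carriers of nucleotides and phosphate, which supply complex V and export ATP, held 7 genes, the VDAC pores of the outer membrane among them. Of these 7 genes 0 passed 0.5, and 1 was above 0 and 6 below, where 57.3% of all genes kept were above 0. Their median was -0.22. After both libraries were rescaled to the same sum, 3 were above 0 and 4 below, with a median of -0.03. The phosphate carrier SLC25A3, named after its value was seen, was the lowest at 86.01 and 61.1 FPKM (-0.49).

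GC content moved with the changes of the nuclear members, as it did for other genes. Spearman's rho between log2 change and GC content of the longest coding transcript was -0.36 over the 49 nuclear members and -0.30 over 10586 other genes outside chrM. These are correlations across genes of the same 2 libraries, and genes are not independent replicates. Below a GC content of 45%, 19 nuclear members had a median of 0.07, with 12 above 0, beside 0.18 for other genes. From 45 to 52% the 15 members had a median of -0.08 with 4 above 0 (other genes 0.02), and from 52% on the 15 members had a median of -0.08 with 6 above 0 (other genes -0.03). In each class the median of the members lay below that of the other genes. With the trend in GC content and length removed, COX7A2L stood at -0.97, COX17 at 0.66 and CYC1 at -0.46. The removal takes out the link to GC content by design, and rho over the members was then -0.03.

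**Figure D4:**
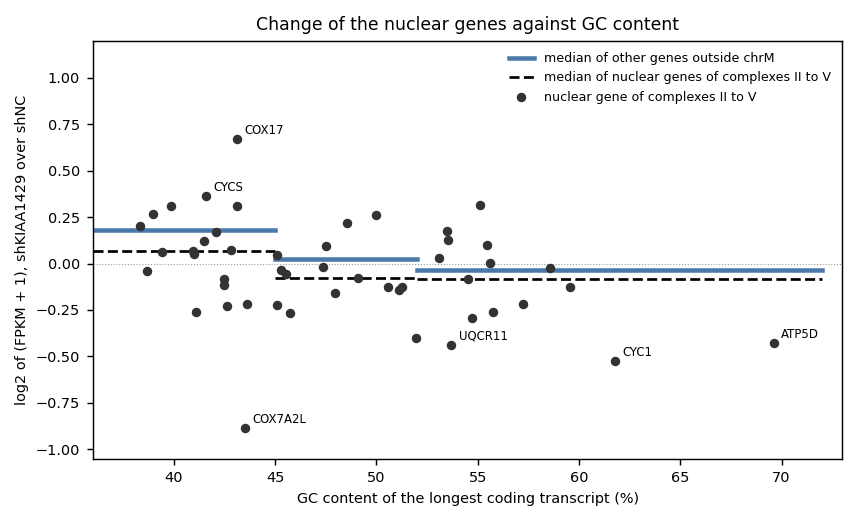
Log2 change of each of the 49 nuclear genes of complexes II to V against the GC content of its longest coding transcript in percent; blue lines are the medians of other genes outside chrM in 3 classes of GC content and dashed lines those of the 49 genes. Both sets of medians are highest below 45% GC, and CYC1 and ATP5D are lower genes of high GC content, whereas COX7A2L at -0.89 has a low GC content.

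The order of both genomes was the same under each setting tried. The nuclear median lay above the chrM median by 0.35 to 0.45 log2 units, and all chrM members left were below 0 each time. Rescaling both libraries to the same FPKM sum moved the median of all genes up by 0.18, the nuclear median to 0.14 with 36 of 49 genes above 0, and the chrM median to -0.30. Relative to the median of all genes, the nuclear median was -0.09 as reported and -0.10 after rescaling, and the chrM median -0.54 both times. The position of the nuclear genes on either side of 0 therefore rests on the scale. Their distance to the chrM genes does not, because a change of scale shifts both medians by nearly the same amount whatever the data.

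**Figure D5:**
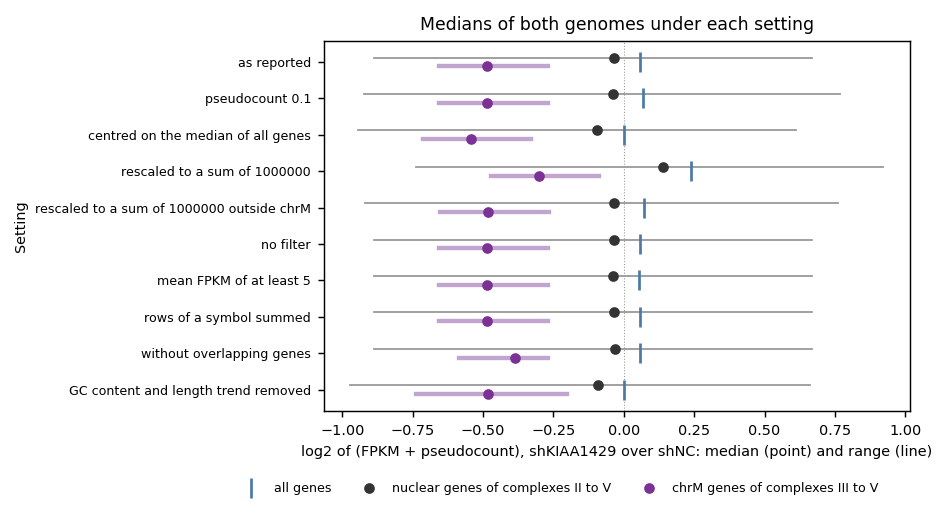
Median (point) and range (line) of the log2 change of the nuclear genes (black) and of the chrM genes (purple) of complexes II to V under each setting, with a blue tick for the median of all genes. The purple point lies left of the black point in every row, and both move right by about the same amount as the blue tick when libraries are rescaled to a sum of 1000000.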

How the data were processed

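The authors deposited FPKM values for 1 shKIAA1429 and 1 shNC library of poly(A) RNA. The libraries were paired-end and strand-specific (dUTP). The submitters' processing notes name cutadapt 1.9, HISAT2 2.0.4, StringTie 1.3.4d, DESeq2 and edgeR without their roles. The genome build is not given in the sources used here; identifiers and positions are those of genes placed on GRCh37. FPKM keeps no read count, so depth is unknown, and a gene's share can fall because others rise.

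From these values the log2 of (FPKM + 1), shKIAA1429 over shNC, was computed where a gene's mean over both libraries reached 1 FPKM. Of 7 symbols on 2 rows, lists used the row with the higher mean. GC content, length and 100-base words came from the longest coding GENCODE 29 transcript, matched for 99.4% of genes. With 1 library per group no test was run. Members and lists were chosen with earlier results of these data known, and so were the limits of 0.5 and 1.5. All members may be named, and of the lists genes past 0.5, the 7 chrM genes of complex I and a few others that are marked where their values are given. Only the log2 ratio and the limit of 1.5 were tried on simulated data with known changes, and no other step was. The tools were pandas 2.3.3, NumPy 2.4.6 and SciPy 1.17.1 under Python 3.11.15, and figures were drawn with matplotlib 3.10.9.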

Additional observations from a re-analysis of the deposited data

How the results depend on the processing

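The median log2 change of -0.04 for the nuclear members and -0.49 for the chrM members moved by less than 0.1 under a pseudocount of 0.1, centring, rescaling outside chrM, no filter, a mean FPKM of at least 5, summed rows, subunits alone, genes without overlap, and removal of the trend in GC content and length. Rescaling to a sum of 1000000 gave 0.14 and -0.30. The difference between both medians moved by less than 0.1 each time. Centring cannot move it, and rescaling can do so only through the pseudocount, so these settings are no check of it. Members past the limit numbered 0 at 1.5 and at 1, and 1 higher and 5 lower at 0.5. Over the FPKM outside chrM, the chrM members came to 42.4% with shNC and 30.5% with shKIAA1429, and the nuclear members to 1.13% and 1.10%, in the other order than over all listed FPKM. Of 55 members, 14 were on the other side of 0 after rescaling, 8 with the trend removed, 4 after centring and 0 under the other scales and filters. No paired analysis was possible because each group has 1 library. No library could be left out for the same reason, and the spread between libraries of a group, and with it the size of difference that would pass a test, is unknown.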
